A study of Mus musculus with 2 samples.

Results

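The nuclear-encoded genes of oxidative phosphorylation were followed across 11 clusters of single cells from mouse gastric tumors. The genes were chosen by name alone: every gene named in the deposited table whose symbol begins as a subunit of complex I (Nduf followed by a, b, c, s or v and a digit), complex II (Sdha to Sdhd), complex III (Uqcr), complex IV (Cox4 to Cox8) or complex V (Atp5), leaving out names with -ps. This took 83 of the 18319 genes named, 39 of complex I, 4 of complex II, 8 of complex III, 15 of complex IV and 17 of complex V. The tumors grew from injected mouse dysplastic stem cells, named DP-DSC in the labels, in female mice of the NuJ strain, and all cells were profiled on the inDrop droplet platform. NuJ is known as a nude strain, which lacks a thymus and mature T cells but keeps myeloid and NK cells. There was 1 library of a cystic adenocarcinoma taken 10 weeks after the injection and 1 of a tubular adenocarcinoma taken 13 weeks after it. The table gives clusters and not tumor types, so the 2 tumors could not be compared, and no value has an error across animals.

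Oxidative phosphorylation takes place in the inner mitochondrial membrane. Complexes I and II pass electrons from NADH and succinate to ubiquinone, complex III passes them to cytochrome c and complex IV to oxygen, and complexes I, III and IV pump protons that drive the ATP synthase, complex V. Most subunits are encoded in the nucleus. In gastric epithelium the acid-secreting parietal cell is known for its density of mitochondria, whereas red cells lose theirs as they mature. The subunits encoded in the mitochondrial genome were not analysed here.

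For each cluster the table gives genes with a linear fold above 1.5 and a p-value, without naming the cells against which the fold was taken. Genes that the table gives for a cluster are called listed there. Those among them with a fold of 2 or more and a p no larger than 0.05 are called raised. The p-value compares cells and not animals, and it served only as a filter. A gene that is not listed may be expressed there at or below the level of the reference. Every member is listed somewhere by the way it was chosen.

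The labels call the cells tumor cells, but several clusters carried markers of other cell types. All 9 macrophage markers were raised in cluster 4 and in cluster 8, where 5 of 6 dendritic cell markers were raised too. All 6 neutrophil markers and 5 of 5 T and NK cell markers (Cd3e, Cd4, Gzma, Ncr1 and Nkg7) were raised in cluster 10, together with 4 of 9 macrophage markers. All 7 fibroblast markers were raised in cluster 11, and all 5 erythroid markers in cluster 2. Of 11 gastric epithelial markers 8 were raised in each of clusters 6 and 9 and 5 in cluster 3. Cluster 7 had 2 of them raised and cluster 5 had 1. Mast cell markers had 1 of 4 raised in each of clusters 4, 5 and 6. Single markers were raised elsewhere: 1 dendritic and 1 fibroblast marker in cluster 4, 1 T and NK cell marker in cluster 8 and 1 dendritic marker in cluster 10. Cluster 1 had no raised marker, though all 5 erythroid markers were listed there. The clusters are therefore called by number.

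Cluster 7 had the most raised members. It listed 30 of the 83 (36.1%), against 12.1% of all genes named, and raised 19 (22.9%), against 3.42% of all genes. Members of all 5 complexes were among the 19, whose folds ran from 2.02 for Cox4i1 to 10.6 for Uqcrfs1 per the authors' deposited table. Genes of cytoplasmic ribosomal proteins were also raised most often in cluster 7, in 37 of 88 cases (42.0%), and their part in the count was not tested. Clusters 1 and 2 also had a larger share of members raised than of all genes. Cluster 2 listed 13 members (15.7%), against 9.07% of all genes, and raised 9 (10.8%), against 2.89%. Cluster 1 listed 6 members (7.23%), against 6.34% of all genes, and raised 5 (6.02%), against 1.82%. With no p threshold the share of cluster 1 was near the background, at 6.02% of members and 5.65% of all genes. In cluster 7 the count fell to 9 (10.8%) at a fold of at least 3, against 2.01% of all genes, and to 7 (8.43%) at a p of at most 0.001, against 1.19%. Members of complexes I and II were not among these 7.

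In the clusters with the longest lists of raised genes the members lay below the background. Cluster 9 listed 23 members (27.7%), against 38.9% of all genes, and raised 3 (3.61%), against 26.6%. Cluster 6 listed 32 members (38.6%), against 36.4%, and raised 8 (9.64%), against 20.3%. Cluster 4 listed 26 members (31.3%), against 31.5%, and raised 11 (13.3%), against 18.6%. The fibroblast-marker cluster had the same order: cluster 11 listed 11 members (13.3%), against 25.7%, and raised 8 (9.64%), against 17.0%. In 2 of these clusters the order turned at a fold of 1.5: cluster 6 then had 31 members (37.3%), against 27.1% of all genes, and cluster 4 had 23 (27.7%), against 23.5%. Cluster 9 stayed below the background there, with 23 (27.7%) against 37.9%, and had 0 members at a fold of at least 3, against 14.1%.

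Cluster 3 was near the background on raised members, cluster 5 somewhat above it, and clusters 8 and 10 below it. Cluster 5 listed the most members of any cluster, 34 (41.0%), against 20.6% of all genes, but raised only 5 (6.02%), against 4.32%. Cluster 3 listed 27 members (32.5%), against 29.9%, and raised 3 (3.61%), against 4.0%. In cluster 8, 21 members were listed (25.3%), against 26.4%, and 0 were raised, against 6.36%. All 21 had a deposited p above 0.05 there. Cluster 10 listed 9 members (10.8%), against 18.9%, and raised only Sdha (1.20%), against 4.90%. The count of cluster 5 rested on the p threshold, with 23 members (27.7%) at a fold of at least 2 and any p, against 16.3% of all genes. At a fold of 1.5 with the p threshold, 9 members of cluster 5 passed (10.8%), against 5.07%. The p threshold also set the count of cluster 3, with 16 without it (19.3%) against 22% of all genes.

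**Figure D1:**
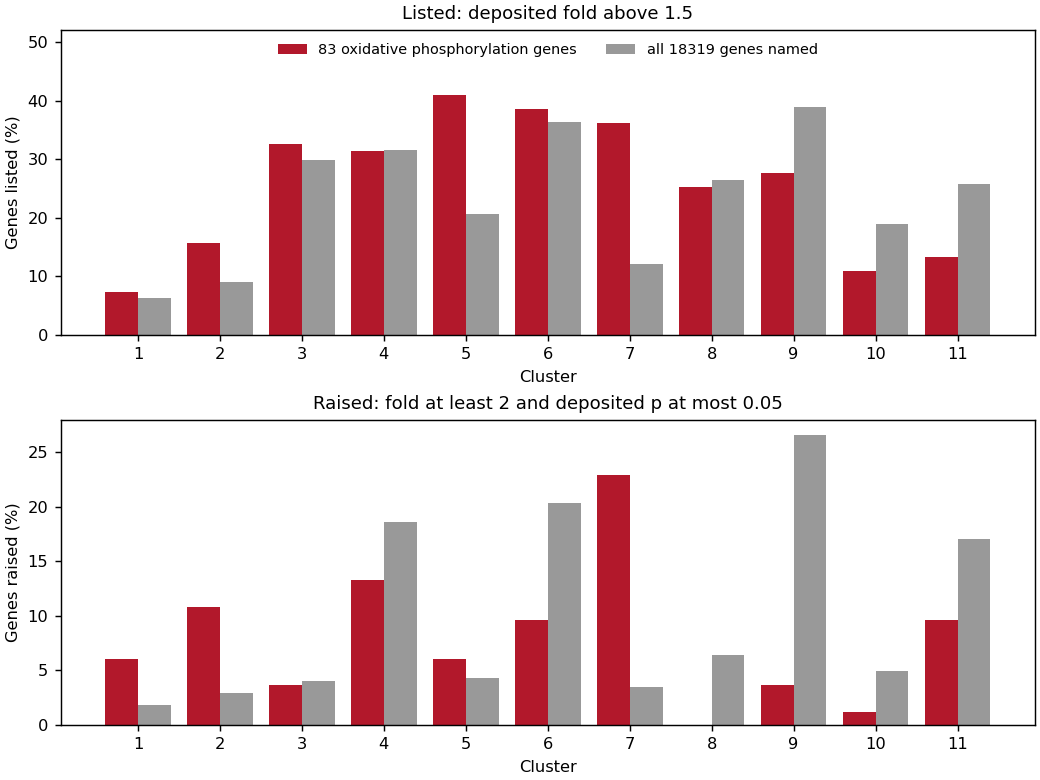
Share of the 83 oxidative phosphorylation genes (red) and of all 18319 genes named (grey) that were listed (top) and raised (bottom) in each of 11 clusters, in percent. In cluster 7 the red bar for raised genes stands at 22.9% and the grey one at 3.42%, and in cluster 9 they stand at 3.61% and 26.6%.

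The folds of listed members were lower than those of listed genes as a whole in all 11 clusters. In cluster 9 the median fold was 1.73 over 23 members and 2.46 over all listed genes per the authors' deposited table, and in cluster 6 it was 1.79 over 32 members and 2.57 over all listed genes. In cluster 7 the medians were 2.75 over 30 members and 3.80 over all listed genes per the authors' deposited table. The members nevertheless stood near the top of several lists, which are ordered by the deposited p. Their median place was 10.8% of the way down the list of cluster 9 and 13.4% down that of cluster 6. It was 6.62% in cluster 2 and 9.0% in cluster 1, against 82.1% in cluster 8. In cluster 9 all 23 listed members and in cluster 6, 31 of 32 had a deposited p of at most 0.05, against 97.3% and 74.5% of all genes listed in them, but only 3 and 8 members were raised.

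Over the 11 clusters 58 of the 83 members (69.9%) were raised at least once, against 78.0% of all genes. Of the 83, 46 were raised in exactly 1 cluster (55.4%, against 50.9% of all genes), 10 in 2 clusters (12%, against 22.3%) and 2 in 3 (2.41%, against 4.44%). Most genes of the table, members or not, were thus raised in 1 cluster at most. Those raised in 3 were Ndufv1 and Ndufc1, and no member was listed in more than 5 clusters. The other 25 members were raised nowhere, 12 of complex I, 1 of complex II, 3 of complex III, 7 of complex IV and 2 of complex V.

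**Figure D2:**
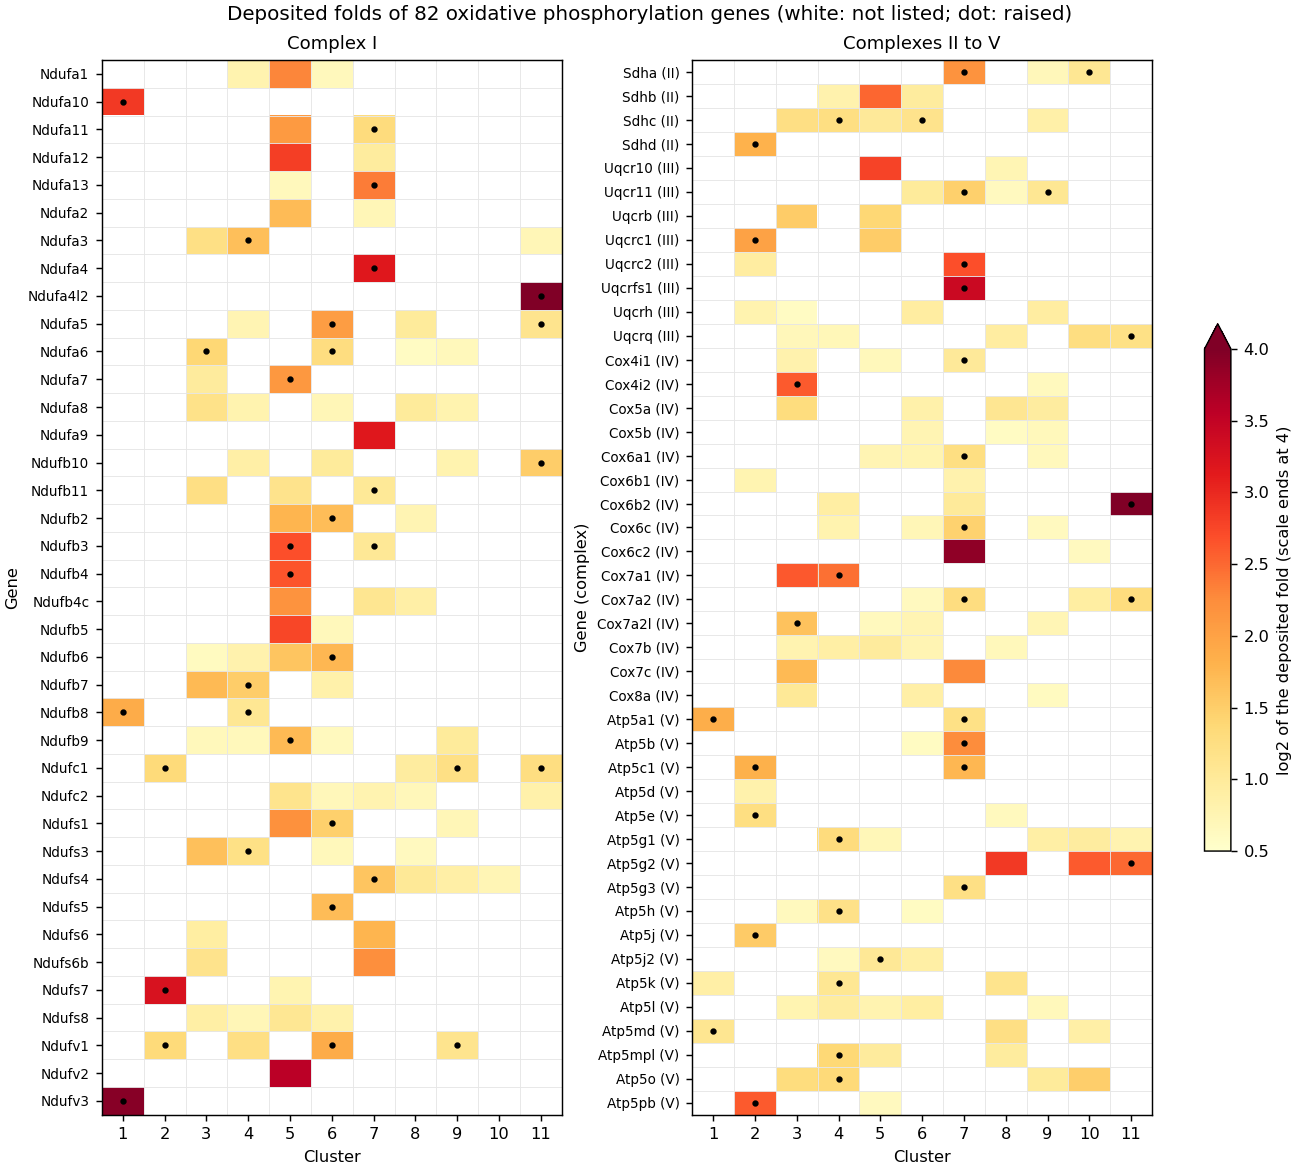
Deposited folds of 82 of the 83 genes on a log2 colour scale, one row per gene and one column per cluster; white cells are not listed and dots mark raised genes. Most genes with dots have them in a single column, and there are 11 dots in cluster 4 and 0 in cluster 8.

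Complex I, the NADH dehydrogenase, had 27 of 39 members raised somewhere, where 78.0% of all genes were raised at least once. In cluster 7 it had 7 raised (17.9%), against 3.42% of all genes, and in cluster 6 also 7, against 20.3%. At a p of at most 0.01 cluster 7 kept 2 and cluster 6 kept 7, where all genes stood at 2.17% and 16.5%. At a p of at most 0.001 they kept 0 and 6, against 1.19% and 11.6%. Complex I had 4 raised (10.3%) in each of clusters 4, 5 and 11, where all genes stood at 18.6%, 4.32% and 17.0%. Clusters 1 and 2 had 3 each (7.69%), against 1.82% and 2.89%, cluster 9 had 2 and cluster 3 had 1. Apart from Ndufa4l2, its largest fold belonged to Ndufv3, an accessory subunit of the NADH-oxidising N module, at 15.3 in cluster 1 per the authors' deposited table. It was listed in no other cluster. Ndufa10, an accessory subunit of the membrane arm, was listed only in cluster 1 too, at 7.23 per the authors' deposited table. Ndufb8, a membrane arm subunit, stood at 3.66 in cluster 1 and 2.09 in cluster 4 per the authors' deposited table, raised in both. Ndufv3 lies on chromosome 17 from 31520115 to 31531326 in GRCm38.

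Catalytic subunits of complex I were raised in several clusters. Ndufv1 and Ndufs1 were both raised in cluster 6, and Ndufv1 and Ndufs7 in cluster 2. Ndufv1, which binds FMN and NADH, was raised at 3.67 in cluster 6, 2.52 in cluster 2 and 2.18 in cluster 9 per the authors' deposited table, and was listed without being raised at 2.34 in cluster 4. The iron-sulfur subunit Ndufs1 was raised at 2.77 in cluster 6, and stood at 4.60 in cluster 5 and 1.63 in cluster 9 without being raised, per the authors' deposited table. Ndufs7, the iron-sulfur subunit next to the ubiquinone site, was raised only in cluster 2, at 9.51 per the authors' deposited table. Ndufs3, of the Q module that holds this site, was raised only in cluster 4, at 2.30 per the authors' deposited table. Of the 10 N module members 3 were raised in cluster 6 (Ndufv1, Ndufs1 and Ndufa6), where 20.3% of all genes were raised. Any other cluster had at most 1. Clusters 1 and 2 had 1 each, where 1.82% and 2.89% of all genes were raised.

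Cluster 5 listed 20 of the 39 complex I members, the most of any cluster, and raised 4 of them. These were Ndufb3 at 6.39, Ndufb4 at 6.21, Ndufa7 at 4.35 and Ndufb9 at 3.31 per the authors' deposited table. Ndufb3, Ndufb4 and Ndufb9 are accessory subunits of the membrane arm. Ndufv2, an iron-sulfur subunit of the N module, had a larger fold of 11.8 per the authors' deposited table but was not raised, its deposited p being above 0.05, and the same held for Ndufa12 at 7.04 and Ndufb5 at 6.71. Ndufb9 was listed in 5 clusters, as many as any complex I member. In clusters 3, 4, 6 and 9, where it was not raised, its folds were 1.59, 1.59, 1.56 and 1.97 per the authors' deposited table.

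The largest complex I folds of cluster 6 were those of Ndufa5 at 4.13, Ndufv1, Ndufb6 at 3.37, Ndufs5 at 3.25 and Ndufb2 at 3.21 per the authors' deposited table. Ndufa5 was also raised in cluster 11, at 2.19 per the authors' deposited table. Cluster 4 raised Ndufa3 at 3.19 and Ndufb7 at 2.83 beside Ndufs3 and Ndufb8 per the authors' deposited table. Ndufc1, a small membrane arm subunit, was raised at 2.5 in cluster 2, 2.33 in cluster 9 and 2.38 in cluster 11 per the authors' deposited table, a narrow range of folds over 3 clusters whose raised markers were erythroid, epithelial and fibroblast. Ndufb10 was raised in cluster 11 alone, at 2.84 per the authors' deposited table. In cluster 3 only Ndufa6, at 2.62 per the authors' deposited table, was raised of 12 complex I members listed.

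In cluster 7 the 7 raised members with a complex I name were led by Ndufa4 at 8.93 and Ndufa13 at 5.17 per the authors' deposited table. Ndufa4 is now placed in complex IV. With Ndufa4 and Ndufa4l2 counted there, complex I had 6 raised in cluster 7 and 3 in cluster 11. Complex IV then had 5 in cluster 7 and 3 in cluster 11. Ndufa13, also known as GRIM-19, is a membrane arm subunit that is also studied as a regulator of cell death. The N module subunit Ndufs4 was raised at 3.03 per the authors' deposited table. The membrane arm subunits Ndufa11 at 2.45, Ndufb3 at 2.05 and Ndufb11 at 2.04 were raised as well per the authors' deposited table. Ndufa9, of the Q module, was listed in cluster 7 alone at 8.91 per the authors' deposited table but was not raised, its deposited p being above 0.05. Of the 12 complex I members raised nowhere, Ndufa8 and Ndufc2 were listed in 5 clusters each, Ndufs8 in 4 and Ndufa1 in 3. The folds of these 12 ran from 1.58 to 11.8 per the authors' deposited table. The acyl carrier subunit Ndufab1, which the name pattern does not take, was listed in cluster 2 at 8.96 per the authors' deposited table and was not raised.

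Complex II, succinate dehydrogenase, links the chain to the TCA cycle, and no cluster had more than 1 of its 4 genes raised. Clusters 2, 4, 6, 7 and 10 had 1 each (25.0%), against 2.89%, 18.6%, 20.3%, 3.42% and 4.90% of all genes. With only 4 genes, these counts are a description only. The flavoprotein Sdha was raised in cluster 7 at 4.52 and in cluster 10 at 2.09 per the authors' deposited table, and stood at 1.61 in cluster 9. The membrane anchor Sdhc was raised in cluster 4 at 2.37 and in cluster 6 at 2.21, and was listed at 2.34 in cluster 3, 2.01 in cluster 5 and 1.81 in cluster 9 per the authors' deposited table. Its partner Sdhd was listed in cluster 2 alone, at 3.51 per the authors' deposited table, and was raised there. The iron-sulfur subunit Sdhb was raised in no cluster, with 1.75 in cluster 4, 5.71 in cluster 5 and 1.93 in cluster 6 per the authors' deposited table. Sdhc was listed in 5 clusters and Sdhd in 1, and they shared none. Cluster 2, the only one with Sdhd, listed 9.07% of all genes, so the lack of a shared cluster is a description only.

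Complex III, the cytochrome bc1 complex, had 3 of 8 members raised in cluster 7 (37.5%), against 3.42% of all genes. This was the largest share of any complex in any cluster. The Rieske iron-sulfur protein Uqcrfs1 was listed only there, at 10.6 per the authors' deposited table. The core protein Uqcrc2 was at 6.44 in cluster 7 and at 1.90 in cluster 2 per the authors' deposited table, raised in the former. The small subunit Uqcr11 was raised at 2.78 in cluster 7 and 2.10 in cluster 9 per the authors' deposited table, and listed at 1.99 in cluster 6 and 1.55 in cluster 8. Cytochrome c1 (Cyc1), which belongs to the same enzyme but not to the name pattern, was also raised in cluster 7, at 5.78, and in cluster 2, at 3.18 per the authors' deposited table. The other core protein, Uqcrc1, was raised in cluster 2 at 3.98 and stood at 2.86 in cluster 5 per the authors' deposited table. Uqcrq, which was listed in 5 clusters, was raised in cluster 11 at 2.30 and ran from 1.61 in cluster 3 to 2.39 in cluster 10 elsewhere per the authors' deposited table. Uqcrh, Uqcrb and Uqcr10 were raised nowhere, with folds from 1.51 for Uqcrh in cluster 3 to 6.85 for Uqcr10 in cluster 5 per the authors' deposited table. The electron carrier cytochrome c (Cycs) was listed at 1.85 in cluster 1 and 2.60 in cluster 5 per the authors' deposited table, raised in neither. Uqcrfs1 lies on chromosome 13 from 30540312 to 30545316 in GRCm38.

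**Figure D3:**
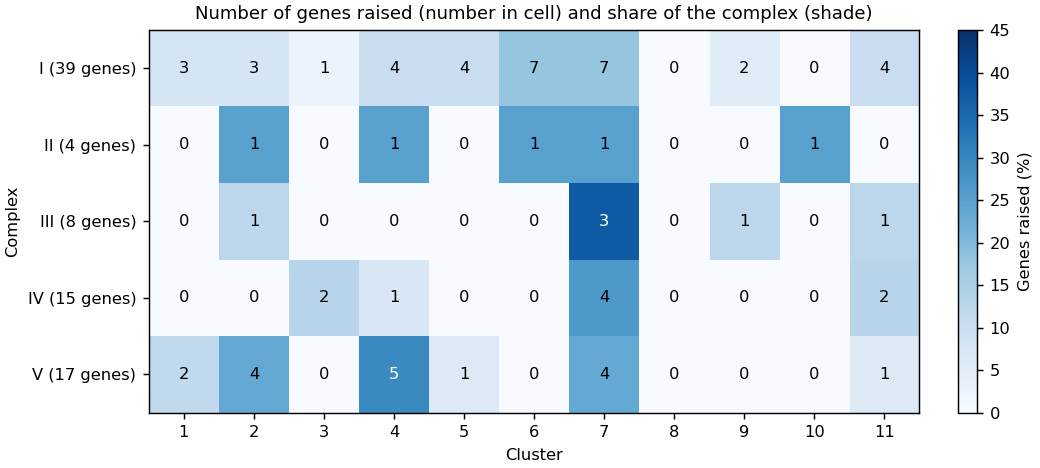
Number of genes raised (in each cell) and share of the complex raised (shade, in percent) for complexes I to V, by row, in the 11 clusters, by column. Complex III in cluster 7 has the darkest cell, with 3 of 8 genes, and cluster 8 is empty.

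Complex IV, cytochrome c oxidase, had 4 of 15 members raised in cluster 7 (26.7%), against 3.42% of all genes. It had 2 in each of clusters 3 and 11 (13.3%), against 4.0% and 17.0%, and 1 in cluster 4 (6.67%), against 18.6%. Those of cluster 7 were the widely expressed forms Cox6c at 2.73, Cox7a2 at 2.42, Cox6a1 at 2.36 and Cox4i1 at 2.02 per the authors' deposited table. Cox4i1 came first of all members by p in cluster 7, at place 22 of the list. In cluster 6, 8 complex IV members were listed (53.3%), against 36.4% of all genes, and 0 were raised, against 20.3%. In cluster 9, 7 were listed (46.7%), against 38.9%, and 0 were raised, against 26.6%. Cox8a, the common form of a small subunit, came first of all members by p in both of those clusters, with folds of 1.83 in cluster 6 and 1.53 in cluster 9 per the authors' deposited table. Cox7b was listed in 5 clusters and raised in none, with folds from 1.59 in cluster 8 to 1.97 in cluster 5 per the authors' deposited table. The subunits Cox5a and Cox5b were also raised nowhere, and were listed together in clusters 6, 8 and 9, at 1.79 and 1.69 in cluster 6 per the authors' deposited table. Cox7c stood at 3.31 in cluster 3 and 4.83 in cluster 7 per the authors' deposited table, raised in neither.

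Complex V, the ATP synthase, had 15 of 17 members raised somewhere, the largest share of the 5 complexes. Over all genes 78.0% were raised at least once. Of the 5 genes of the catalytic F1 head, 3 were raised in cluster 7, 2 in cluster 2 and 1 in cluster 1. All genes stood at 3.42%, 2.89% and 1.82% in these clusters. In cluster 7 the subunits alpha (Atp5a1), beta (Atp5b) and gamma (Atp5c1) were raised, at 2.30, 4.75 and 3.36 per the authors' deposited table. Atp5a1 stood at place 3 of the whole list of cluster 1, with a fold of 3.64 per the authors' deposited table. In cluster 2 Atp5c1 at 3.53 and the epsilon subunit Atp5e at 2.37 were raised, and the delta subunit Atp5d stood at 1.77 per the authors' deposited table.

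Subunits of the stalk and membrane part were raised in cluster 4 in 5 of 12 cases, where all genes stood at 18.6%. In cluster 2 they were raised in 2 of 12, where all genes stood at 2.89%. In cluster 4 these were Atp5mpl at 2.58, the stalk protein Atp5o at 2.54, the c-ring gene Atp5g1 at 2.46, the stalk protein Atp5h at 2.28 and Atp5k at 2.10 per the authors' deposited table. In cluster 2 they were the stalk proteins Atp5pb at 6.05 and Atp5j at 2.88 per the authors' deposited table. Atp5md was raised in cluster 1 at 2.14 and Atp5j2 in cluster 5 at 2.05 per the authors' deposited table. Atp5l, a membrane subunit, was listed in 5 clusters at folds from 1.59 in cluster 9 to 1.92 in cluster 4 per the authors' deposited table and raised in none. No F1 gene was listed in cluster 4. The inhibitor of the enzyme, Atpif1, which the name pattern does not take, was raised in cluster 3 at 2.39 and in cluster 7 at 2.59 per the authors' deposited table. It was listed without being raised at 1.97 in cluster 6, 1.74 in cluster 9 and 1.54 in cluster 11 per the authors' deposited table.

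Several subunits are made from more than 1 gene. Since most genes of the table were raised in 1 cluster or none, copies raised in different clusters are a description only. The c-ring, the rotor of the ATP synthase, comes from Atp5g1, Atp5g2 and Atp5g3, whose mature proteins are identical. Atp5g1 was raised in cluster 4 only, at 2.46 per the authors' deposited table. Atp5g2 was raised in cluster 11 only, at 5.65, and stood at 7.28 in cluster 8 and 6.07 in cluster 10, where its p was above 0.05, per the authors' deposited table. Atp5g3 was listed in cluster 7 alone, at 2.32 per the authors' deposited table. Whether the copies differ between clusters beyond the error was not tested, since the table gives no value for a gene that is not listed.

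Cox7a1 is known as the heart and muscle form of a complex IV subunit and Cox7a2 as the form of most other tissues. Cox7a1 was raised in cluster 4 at 5.43 and stood at 6.13 in cluster 3 without being raised per the authors' deposited table. Cox7a2 was raised in cluster 7 at 2.42 and in cluster 11 at 2.45, and stood at 1.55 in cluster 6 and 1.89 in cluster 10 per the authors' deposited table. The related Cox7a2l, which joins complexes III and IV into supercomplexes, was raised in cluster 3 alone, at 3.08, and stood at 1.56 in cluster 5, 1.68 in cluster 6 and 1.65 in cluster 9 per the authors' deposited table.

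Because these copies make like or identical proteins, their promoters are shown: 300 bases from 250 before a start to 50 after it, from RefSeq on GRCm38.p6, 5′ to 3′ on the strand of the gene. The RefSeq table gives 1 start for each of these genes, which for Atp5g1, Atp5g3 and Cox7a2 lies inside the outer bounds of the gene, and any other start is not shown. Capitals mark matches to motifs of 4 factors known at promoters of mitochondrial genes. These are GCGCANGCG for NRF1, CCGGAAG for ETS factors such as GABPA, AAGATGG for YY1 and GGGCGG for the GC box of Sp factors, each searched on both strands. The windows are chr11:96075582-96075881 (minus strand) for Atp5g1, chr15:102670998-102671297 (minus) for Atp5g2, chr2:73911277-73911576 (minus) for Atp5g3, chr7:30183921-30184220 (plus) for Cox7a1 and chr9:79759804-79760103 (minus) for Cox7a2.
Atp5g1: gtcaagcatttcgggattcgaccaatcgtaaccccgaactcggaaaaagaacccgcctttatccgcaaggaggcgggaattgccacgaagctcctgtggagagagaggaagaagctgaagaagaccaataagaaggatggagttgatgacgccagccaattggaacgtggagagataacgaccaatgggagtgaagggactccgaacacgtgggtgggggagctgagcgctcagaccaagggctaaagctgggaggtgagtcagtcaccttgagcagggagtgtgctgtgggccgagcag
Atp5g2: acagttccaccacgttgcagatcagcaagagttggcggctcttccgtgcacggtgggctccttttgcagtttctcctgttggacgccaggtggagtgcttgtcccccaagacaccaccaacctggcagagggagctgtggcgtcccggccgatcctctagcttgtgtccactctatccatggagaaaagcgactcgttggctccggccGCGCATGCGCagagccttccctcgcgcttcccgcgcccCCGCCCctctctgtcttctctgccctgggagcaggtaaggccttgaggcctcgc
Atp5g3: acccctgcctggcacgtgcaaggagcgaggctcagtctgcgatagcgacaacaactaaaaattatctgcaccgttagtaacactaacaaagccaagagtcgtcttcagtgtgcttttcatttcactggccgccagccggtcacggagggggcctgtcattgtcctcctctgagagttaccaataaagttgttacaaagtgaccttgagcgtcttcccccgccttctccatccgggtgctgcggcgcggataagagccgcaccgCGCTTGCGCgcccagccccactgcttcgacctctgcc
Cox7a1: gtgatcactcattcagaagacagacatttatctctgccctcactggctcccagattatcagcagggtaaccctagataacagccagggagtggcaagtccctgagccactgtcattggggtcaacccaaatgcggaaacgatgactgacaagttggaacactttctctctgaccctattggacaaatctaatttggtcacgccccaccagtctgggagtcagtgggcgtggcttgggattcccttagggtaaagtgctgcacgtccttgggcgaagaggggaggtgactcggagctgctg
Cox7a2: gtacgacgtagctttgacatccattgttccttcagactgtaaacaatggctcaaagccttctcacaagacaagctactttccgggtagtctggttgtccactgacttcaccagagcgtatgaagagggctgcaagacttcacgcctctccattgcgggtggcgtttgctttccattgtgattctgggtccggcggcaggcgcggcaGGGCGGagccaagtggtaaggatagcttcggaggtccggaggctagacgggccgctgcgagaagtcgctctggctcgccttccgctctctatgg
The window of Atp5g2 held 2 NRF1 matches, 1 on each strand and overlapping, and 1 GC box. That of Atp5g3 held 1 NRF1 match, that of Cox7a2 held 1 GC box, and those of Atp5g1 and Cox7a1 held 0 matches to the 4 motifs. A match describes letters and not binding.

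The 4 motifs were counted over the 66 members with a promoter window. The NRF1 letters occurred in 20 of them (30.3%), against 12.9% of the 12332 genes of the table with a window and 7.03% of all 27025 genes with one. The ETS letters occurred in 17 (25.8%), against 17.4% and 9.93%. The YY1 letters occurred in 11 (16.7%), against 7.74% and 7.28%. The GC box occurred in 27 (40.9%), against 62.1% and 38.2%. Of the members raised in cluster 7, 14 had a window, and 6 held the NRF1 letters, 2 the ETS letters, 1 the YY1 letters and 4 the GC box. The difference of these shares was not tested. A gene with several starts in the table counted once if any of its windows held the letters, and matches to different motifs may overlap.

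Values of other gene copies follow. Ndufa4, which carries a complex I name but is now placed in complex IV, was listed in cluster 7 alone, at 8.93 per the authors' deposited table. Its paralog Ndufa4l2, a known target of hypoxia-inducible factor, was listed in cluster 11 alone, at 56.1 per the authors' deposited table, the largest fold of any member. Cox6b2, known as the testis form of Cox6b, was raised in cluster 11 at 25.8, and stood at 1.87 in cluster 4 and 2.0 in cluster 7, per the authors' deposited table. Cox6b1, the common form, was listed at 1.70 in cluster 2 and 1.76 in cluster 7 per the authors' deposited table, raised in neither. Cox4i2, known as a lung and hypoxia-linked form of subunit 4, was raised in cluster 3 at 6.09 and stood at 1.56 in cluster 9 per the authors' deposited table, while Cox4i1 stood at 1.76 in cluster 3 and 1.59 in cluster 5 and was raised in cluster 7. Ndufa4l2 lies on chromosome 10 from 127509274 to 127517154, Cox6b2 on chromosome 7 from 4751792 to 4753094 and Cox4i2 on chromosome 2 from 152753916 to 152765039 in GRCm38. How many cells held each transcript is not stated in the sources.

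**Figure D4:**
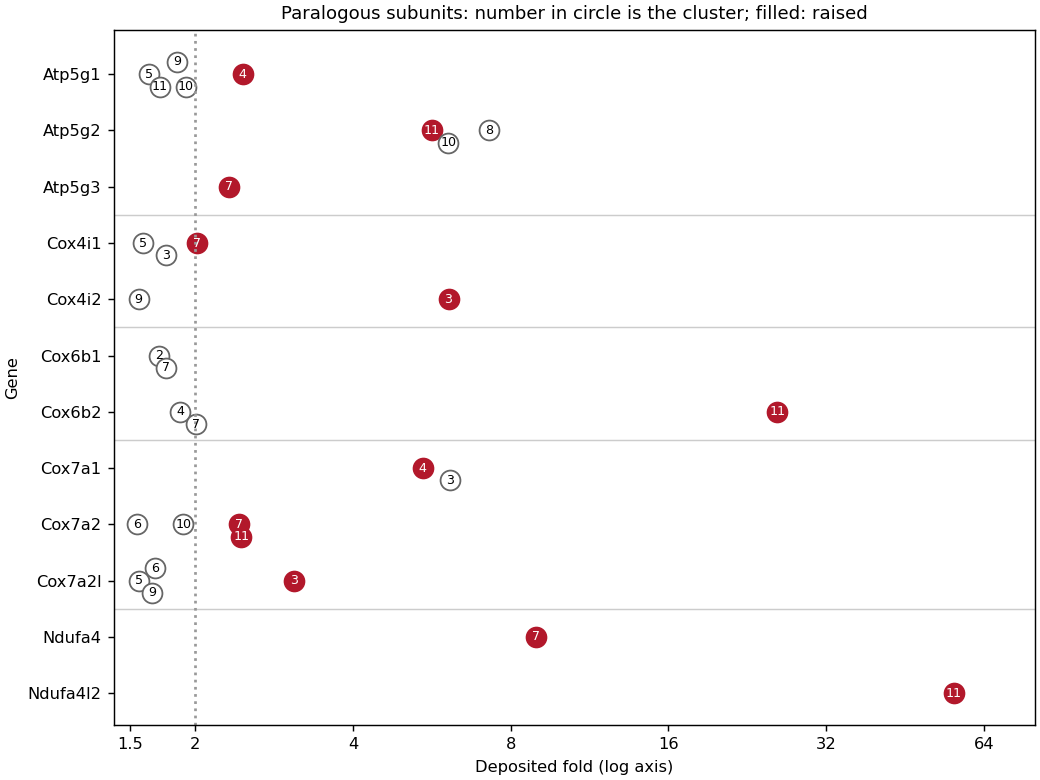
Deposited fold (log axis) of genes that encode alternative copies of a subunit, one row per gene; each circle is a cluster, with its number inside, and filled circles are raised. Circles that would overlap are shifted up or down. Atp5g1, Atp5g2 and Atp5g3 have their filled circles in clusters 4, 11 and 7, and Ndufa4 and Ndufa4l2 in clusters 7 and 11.

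Some members share sequence with other genes, so their reads may have been split or counted for another gene. Ndufs6b, Cox6c2 and Ndufb4c are annotated as processed pseudogenes in GENCODE M21, although RefSeq calls Ndufb4c protein-coding, and none was raised. Cox6c2 had a fold of 14.8 in cluster 7 per the authors' deposited table, where its parent Cox6c was raised at 2.73, and Ndufs6b had 4.65 there beside 3.43 for Ndufs6. Of the 83 members 24 share exon bases with a gene on the opposite strand, Ndufa4l2, Atp5a1, Cox4i1 and Uqcrc2 among them. The sources used here do not give whether the counting used strand. The 8 names with -ps that were left out included Ndufb1-ps, raised at 3.42 in cluster 4 per the authors' deposited table.

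The factors that assemble the respiratory chain had their highest counts in clusters 9 and 6, which also had the highest shares of all genes raised. Of 49 assembly factors, 18 were raised in cluster 9 (36.7%), against 26.6% of all genes, and 14 in cluster 6 (28.6%), against 20.3%. In cluster 11, 8 were raised (16.3%), against 17.0%, and in cluster 7, 0, against 3.42%. For the 83 subunit genes the counts in clusters 9, 6, 11 and 7 were 3, 8, 8 and 19. Ndufaf7, a methyltransferase that modifies a complex I subunit, had the largest fold of the factors raised in cluster 9, at 6.54, and was raised at 7.76 in cluster 6 per the authors' deposited table. Of 80 proteins of the mitochondrial ribosome, which translates the subunits encoded in the organelle, 23 were raised in cluster 6 (28.8%), against 20.3% of all genes. Some counts were near the background, with 23 in cluster 9 (28.8%) against 26.6%, 15 in cluster 11 (18.8%) against 17.0% and 3 in cluster 7 (3.75%) against 3.42%. Cluster 5 was above it, with 7 (8.75%) against 4.32%. Cluster 4 was below it, with 10 (12.5%) against 18.6%, and clusters 8 and 10 had 0, against 6.36% and 4.90%. Mrpl39 led the mitochondrial ribosome genes in cluster 6 at 9.5 per the authors' deposited table. The difference between these lists and the subunits was not tested.

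The cytoplasmic ribosomal protein genes of cluster 7 had a median fold of 2.41 over the 64 listed per the authors' deposited table. Of the 88 such genes 18 were raised in cluster 3 (20.5%), against 4.0% of all genes. In cluster 2, 9 were raised (10.2%), against 2.89%. Cluster 9 also had 9 raised (10.2%), but there the share lay below that of all genes, 26.6%. Of the mitochondrial transporters, the adenine nucleotide translocator Slc25a5 was raised in cluster 7 at 2.87, and its paralog Slc25a4 in cluster 2 at 7.72 per the authors' deposited table.

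Enzymes of the TCA cycle and of pyruvate oxidation, which supply electrons to the chain, had 6 of 17 members raised in cluster 6 (35.3%), against 20.3% of all genes. In each of clusters 4 and 11 they had 3 (17.6%), against 18.6% and 17.0%, and in cluster 7 they had 0, against 3.42%. Fumarase (Fh1) led them in cluster 6 at 3.85, and was raised at 3.40 in cluster 4 and 2.71 in cluster 9 per the authors' deposited table. Of 12 regulators of mitochondrial gene expression, 5 were raised in cluster 9 (41.7%), 4 in cluster 6 (33.3%) and 3 in cluster 4 (25.0%). These clusters had the highest shares of all genes raised, at 26.6%, 20.3% and 18.6%. The other clusters had 0, among them cluster 11, where all genes stood at 17.0%. The coactivator Ppargc1b was at 6.98 in cluster 9 and 2.32 in cluster 4, and stood at 11.9 in cluster 11 without being raised, per the authors' deposited table. The nuclear receptor Esrra, which drives subunit genes with that family of coactivators, was raised at 2.02, 2.08 and 2.26 in clusters 9, 6 and 4 per the authors' deposited table. Glycolysis genes were raised most often in cluster 4, with 7 of 16 (43.8%) against 18.6% of all genes, where the lactate exporter Slc16a3 stood at 5.95 per the authors' deposited table. Beside these, 11 of 83 oxidative phosphorylation genes were raised in cluster 4.

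**Figure D5:**
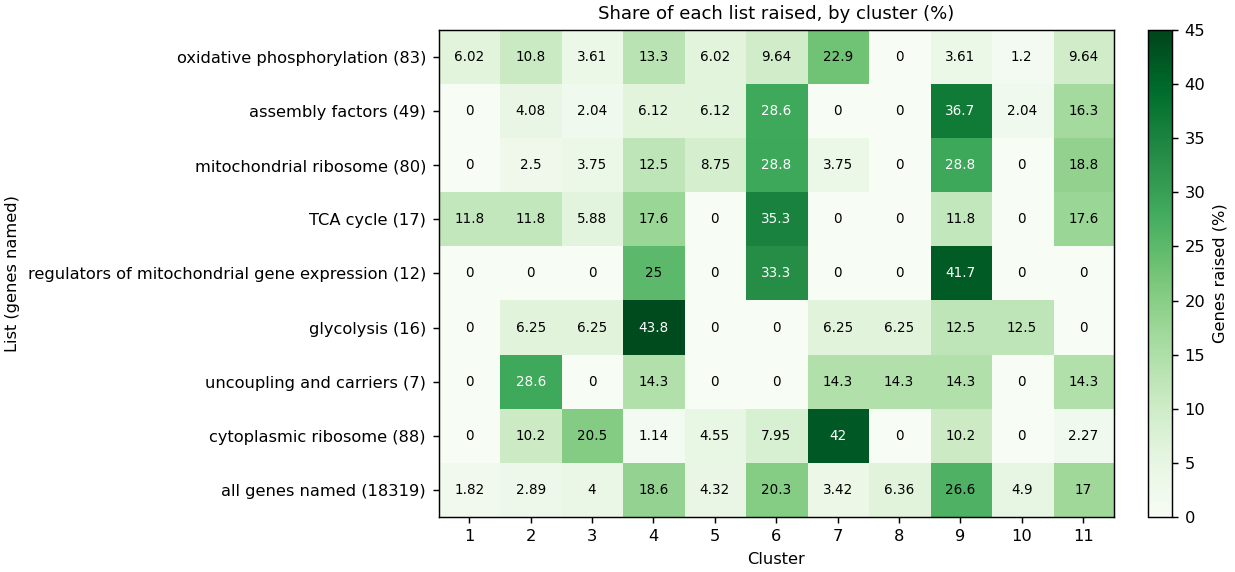
Share of each gene list that was raised in each cluster, in percent, by list (rows, with the number of genes named) and cluster (columns); the last row is all genes named. Oxidative phosphorylation peaks in cluster 7 (22.9%), where all genes are at 3.42% and assembly factors and the TCA cycle at 0. Assembly factors peak in cluster 9 (36.7%), where all genes are at 26.6%.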

How the data were processed

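Dissociated cells of 2 tumors, 1 library each, were profiled on the inDrop platform, per the labels' protocols. Per the submitters' processing notes the build was mm10, and STAR 2.7.3a, DESeq2 3.5 and Partek were used at steps that the notes do not name here. For each of 11 clusters the authors deposited gene names, a fold change as a linear ratio and a p-value, as columns of 1 table. The sources used here do not give cell filters, doublet treatment, the size of any cluster or how deeply cells were sequenced. With no per-sample value and no replicate, no test was run: lists are described by counts and medians beside those of all 18319 genes named.

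The members and lists were chosen with earlier results of these data known. Genes named were the 3 raised members of largest fold in each cluster, the member of each complex listed in most clusters, members raised in at least 3 clusters, complex II genes, isoform and regulator genes, and the leading gene of each other list; further members were named after their values were seen. The motifs and promoters were also chosen after values were seen. Positions and promoters are from RefSeq on GRCm38.p6, in which all 83 members matched and 66 had a promoter window. Gene types and overlaps are from GENCODE M21, in which 81 matched. Single values of some genes are not reported here. Counting was tested on simulated data. Alternatives were fold thresholds of 1.5 and 3, p thresholds of 0.01 and 0.001 or none, and other member sets. Python 3.11.15 and pandas 2.3.3 were used.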

Additional observations from a re-analysis of the deposited data

How the results depend on the processing

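Of the counts and medians per cluster and of the totals per complex and per list, recomputed under the alternatives, 145 stayed within 1.5 times of the reported value and 67 moved further. Of the smaller counts, by complex and cluster, list and cluster, or single gene, 844 stayed and 341 moved. The moves under other thresholds follow from keeping more or fewer genes. At a fold of 1.5, counting raised members, cluster 4 had 23 (27.7%, against 23.5% of all genes) and cluster 5 had 9 (10.8%, against 5.07%). Cluster 6 had 31 (37.3%, against 27.1%), cluster 9 had 23 (27.7%, against 37.9%) and cluster 10 had 2 (2.41%, against 5.11%). At a fold of 3, cluster 2 had 5, cluster 4 had 2, cluster 6 had 5, cluster 7 had 9, clusters 9 and 10 had 0 and cluster 11 had 3. With no p threshold, cluster 3 had 16, cluster 5 had 23, cluster 8 had 5 and cluster 10 had 4. At a p of at most 0.01, cluster 3 had 1 (1.20%, against 1.98% of all genes) and cluster 5 had 3 (3.61%, against 2.98%). Cluster 10 had 0 there, against 3.32%. At 0.001, cluster 5 had 3 (3.61%, against 2.01%) and cluster 7 had 7 (8.43%, against 1.19%). Clusters 3 and 10 had 0 there, against 0.786% and 2.22%. Without isoforms of restricted expression such as Cox4i2 and factors such as Cox7a2l, cluster 3 had 1. Counting listed members with a fold of at least 2, cluster 3 had 16, cluster 4 had 12, cluster 6 had 8, cluster 8 had 5, cluster 9 had 3 and cluster 10 had 4. Medians over members with a p of at most 0.05 moved in no cluster, and cluster 8 had none to give.

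Raised gene and cluster pairs by complex numbered, at a fold of 1.5, 61 in complex I, 9 in II, 12 in III, 30 in IV and 32 in V, and at a fold of 3, 19, 2, 3, 4 and 6. With no p threshold there were 60 in I, 8 in II, 11 in III and 17 in IV, and at a p of at most 0.001 there were 21 in I, 3 in II and 4 in IV. For the other lists, a fold of 1.5 gave 30 pairs for the TCA cycle, 27 for glycolysis, 14 for uncoupling and carriers and 178 for the cytoplasmic ribosome. A fold of 3 gave 30 for assembly factors, 6 for the TCA cycle, 3 for regulators, 6 for glycolysis, 41 for the mitochondrial ribosome and 22 for the cytoplasmic ribosome. No p threshold gave 4 for the carriers and subunits outside the name pattern, 105 for assembly factors, 35 for the TCA cycle, 31 for regulators, 23 for glycolysis and 172 for the mitochondrial ribosome. A p of at most 0.01 gave 1 for those carriers and subunits, and 0.001 gave 0 for them, 31 for assembly factors and 56 for the mitochondrial ribosome.

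No paired analysis was possible because each tumor type has 1 library and the table has no sample columns, and for the same reason leaving out a library gave no value. The sources used here do not state how many cells a cluster holds or their depth. No precision can be given for any count.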

Other observations

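Transport and uncoupling genes of the mitochondrion were raised in several clusters. The uncoupling protein Ucp2 was raised in clusters 4 and 8, at 3.53 and 3.01, and stood at 2.16 in cluster 10 without being raised, per the authors' deposited table. The outer membrane channel Vdac1 was raised in clusters 2 and 11, at 4.57 and 3.10, and Vdac2 in cluster 9, at 2.95 per the authors' deposited table. In cluster 10 the glucose transporter Slc2a1 stood at 93.3 and hexokinase 2 (Hk2) at 3.66 per the authors' deposited table, both raised, while Sdha was the only raised oxidative phosphorylation gene there. Single assembly factors had large folds in clusters with few others raised: Ecsit at 32 in cluster 3, Tmem70 at 15.4 in cluster 2 and Pet100 at 9.87 in cluster 5 per the authors' deposited table.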
